A study of Mus musculus with 4 samples.

Results

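The regions described here are the intronic H3K27ac peaks of the longest mouse genes, mapped by chromatin immunoprecipitation sequencing in adult left cerebral cortex. A peak was a member if its midpoint lay in an intron of an autosomal protein-coding gene of at least 500 kb from start to end, if it was under 4000 bp wide and if it did not touch the 1 kb on either side of a transcription start site (TSS) of a coding or long non-coding gene. Genes and TSSs came from the GENCODE vM21 basic annotation on mm10. Of the 72027 peaks in the replicated list, 4608 met this rule, which is 6.40%. The annotation holds 218 such genes, 1.05% of the 20807 autosomal coding genes, and 202 of them held at least 1 member. Of the members, 36 lay in introns of 2 overlapping long genes and 10 in introns of 3, which gives 4664 peak-gene pairs. The mice were female B6CASTF1/J, aged 2 months, untreated and all of 1 genotype, and the tissue was left cerebral cortex. The 4 samples are 2 technical libraries of each of 2 pools, pool I and pool J, and each pool was made from 4 biosamples. The deposited lists give 1 set of peaks per pool, so pool I and pool J values stand side by side below without an error, and their difference may be technical.

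H3K27ac is an acetylation of histone H3 found on nucleosomes beside active promoters and active enhancers. Enhancers often lie in introns, and an intronic peak may act on its host gene or on another gene, which a peak list does not show. Very long genes are enriched among genes for synapses, cell adhesion and ion channels, and many are most active in the nervous system. In tissue made of many cell types, fewer cells of a type and less acetylation per cell cannot be told apart. Promoter peaks stood at all 6 excitatory neuron, all 6 astrocyte and all 6 endothelial marker genes, at 5 of 6 oligodendrocyte, 5 of 6 microglia and 3 of 6 inhibitory neuron markers, at 2 of 6 muscle markers and at 0 of 6 liver markers. Sst, Pvalb and Vip were the inhibitory neuron markers without one.

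Sequences are shown for the highest-signal member of the 3 genes with the densest peaks (Syt1, Celf2, Kalrn), for 2 high-signal members in genes that are not read-through models (Magi2, Trpm3) and for the highest member of Cntnap2, a very long gene with few peaks. Each is 201 bases of mm10 centred on the summit, read 5′ to 3′ from the GRCm38.p6 assembly, and capitals mark matches to any of 12 short motifs on either strand.
Syt1, chr10:108601114-108601314, plus strand: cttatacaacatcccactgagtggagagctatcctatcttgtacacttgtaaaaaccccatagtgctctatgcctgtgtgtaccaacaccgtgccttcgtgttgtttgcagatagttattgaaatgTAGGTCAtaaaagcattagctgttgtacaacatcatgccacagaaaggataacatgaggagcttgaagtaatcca
Celf2, chr2:7255798-7255998, plus strand: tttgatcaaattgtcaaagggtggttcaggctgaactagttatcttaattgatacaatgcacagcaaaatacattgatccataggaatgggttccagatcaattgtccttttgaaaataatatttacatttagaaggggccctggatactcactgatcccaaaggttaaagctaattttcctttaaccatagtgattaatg
Kalrn, chr16:34236458-34236658, plus strand: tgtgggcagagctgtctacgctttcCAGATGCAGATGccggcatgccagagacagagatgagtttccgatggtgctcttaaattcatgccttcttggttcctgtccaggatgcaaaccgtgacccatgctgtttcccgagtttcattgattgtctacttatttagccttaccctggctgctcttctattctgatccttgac
Magi2, chr5:20568877-20569077, plus strand: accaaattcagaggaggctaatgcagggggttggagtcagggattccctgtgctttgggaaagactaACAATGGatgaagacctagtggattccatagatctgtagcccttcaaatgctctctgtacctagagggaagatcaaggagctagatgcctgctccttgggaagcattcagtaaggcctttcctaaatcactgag
Trpm3, chr19:22916391-22916591, plus strand: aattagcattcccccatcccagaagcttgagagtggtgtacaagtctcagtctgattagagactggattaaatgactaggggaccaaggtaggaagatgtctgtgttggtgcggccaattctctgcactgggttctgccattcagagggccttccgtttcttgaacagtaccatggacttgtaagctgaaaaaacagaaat
Cntnap2, chr6:47239398-47239598, plus strand: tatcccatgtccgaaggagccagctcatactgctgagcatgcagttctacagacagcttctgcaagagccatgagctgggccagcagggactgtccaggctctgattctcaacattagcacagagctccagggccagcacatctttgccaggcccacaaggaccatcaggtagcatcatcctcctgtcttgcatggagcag
The capitals are a nuclear receptor core site (TAGGTCA) in Syt1, a doubled E-box (CAGATG) in Kalrn and a SOX motif (ACAATGG) in Magi2. The Celf2, Trpm3 and Cntnap2 windows held none of the 12 motifs. The Syt1 window lies in intron 8 of 10 and the Kalrn window in intron 14 of 59. The Celf2 window lies in intron 1 of 15, the Magi2 window in intron 15 of 20, the Trpm3 window in intron 19 of 24 and the Cntnap2 window in intron 21 of 23. Their replicated-list signals were 9.15 in Syt1, 9.44 in Celf2, 8.56 in Kalrn, 11.4 in Magi2, 12.2 in Trpm3 and 5.37 in Cntnap2. Signal means the authors' own number per peak, whose scale was not given in the sources used here. In the pool I and pool J lists these regions had signals of 9.81 and 7.79 in Syt1, of 14.5 and 8.35 in Magi2 and of 6.96 and 3.67 in Cntnap2. Of the 6 printed windows, that of Cntnap2 was the richest in G and C (55.2%) and that of Celf2 the poorest (34.8%).

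Over all members, the 201 bases around the summit had a median GC content of 45.8%, against 48.3% for intronic peaks of genes of 100 to 500 kb and 50.7% for those of genes under 100 kb. Windows 5 kb to one side of the members, where these held no peak, had a median of 41.8%. Repeats marked in the assembly covered a median of 4.98% of a member window and 12.9% of a flank window. Motif shares differed by at most a few percentage points between members and other peaks. AP-1 (TGANTCA), bound by Fos and Jun proteins, was found in 6.73% of member windows, in 5.78% of windows in genes of 100 to 500 kb, in 5.91% of all 52165 autosomal peaks away from TSS windows and in 6.005% of the flanks. Among members, AP-1 was found in 5.54% of those in both pool lists and in 7.62% of those in neither or 1. The E-box CAGCTG was found in 11.2% of member windows, in 13.9% in genes of 100 to 500 kb, in 13.6% of all such peaks and in 6.95% of the flanks. CAGATG, an E-box read by neuronal bHLH factors, was found in 17.2%, 17.7%, 17.2% and 15.1% of the same 4 sets. The SOX motif was found in 3.41% of member windows and in 2.71% of all peaks away from TSS windows, and MEF2 (CTANNNNTAG) in 3.13% and 3.25%. The nuclear receptor site was found in 2.26% and 2.25%. The RFX motif (GTTGCCA) was found in 2.26% and 2.40%, FOX (TGTTTAC) in 3.36% and 2.80%, and NFI (TGGC, 5 free bases, GCCA) in 0.412% and 0.598% of the same sets. CRE (TGACGTCA) was found in 0.130% and 0.144%, ETS (CCGGAAG) in 0.825% and 1.08%, and SP/KLF (GGGCGGG) in 0.911% and 1.64%. Base composition differs between these sets and was not matched.

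The long genes differed widely in how many peaks their introns held. Per 100 kb of gene from start to end, the median gene had 1.37 peaks, with quartiles of 0.355 and 3.51, and all 218 genes together had 2.48. Peaks were found in 202 of the 218 genes. In 15 genes there was 1 peak, in 77 genes at least 20, in 19 at least 50 and in 10 at least 100. The pool I list, with 4682 peaks by the same rule, gave a median of 1.46 per 100 kb, and the pool J list, with 2697, gave 0.578. The order of the genes was shared, with a Spearman rank correlation of 0.94 between pool I and pool J densities over the 218 genes. Both densities of a gene share its sequence and annotation, and all of a pool's come from 1 list. Density had a Spearman rank correlation of -0.08 with gene length and of 0.40 with the GC content of the gene: the median GC was 43.6% in the 12 densest genes, 40.1% in all 218 and 38.3% in the 16 without a member. Whether base composition has a part in the densities was not tested.

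Syt1 was the densest gene. It encodes synaptotagmin 1, the calcium sensor for fast transmitter release, and its 513 kb (chr10:108497650-109010982, minus strand) held 149 members, 29.0 per 100 kb. The pool I list gave 27.3 and the pool J list 18.3 peaks per 100 kb, so Syt1 led in each list. The longest stretch without a member there was 38.6 kb, and neighbouring members lay a median of 1.92 kb apart. Of the Syt1 members, 74 overlapped peaks of both pool lists. Intron 3 held 50 members in 140 kb and intron 9 held 32 in 79.3 kb.

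Celf2 and Kalrn came next, with 18.7 and 18.4 peaks per 100 kb. Celf2, an RNA-binding splicing regulator of neurons, held 181 members in 970 kb, of which 75 lay in its first intron and 70 in its second. Kalrn, a guanine nucleotide exchange factor of dendritic spines, held 111 members in 604 kb. Their order was not shared by the pools: the pool I list gave Celf2 18.7 and Kalrn 14.9, and the pool J list gave Celf2 12.3 and Kalrn 12.6. Nav2, a neuron navigator that guides growing axons, followed with 104 members and 14.8 per 100 kb, with 12.1 in the pool I and 9.41 in the pool J list. Kcnma1, the large-conductance calcium-activated potassium channel, had 11.999 per 100 kb, with 11.2 in the pool I and 8.14 in the pool J list, and 39 of its 87 members lay in its first intron.

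The rest of the 12 densest genes lay between 8.24 and 11.5 per 100 kb. Dlgap1 (11.5) and Anks1b (10.002) encode proteins of the postsynaptic density, Ank2 (10.4) and Ank3 (9.07) are ankyrins that anchor channels and adhesion molecules to the membrane skeleton, and Ptprn2 (9.86) is a protein of dense-core vesicles. Tenm4 (8.24) is a teneurin, a transsynaptic adhesion protein. Gm37240 (8.41) is a read-through model that spans 6 other coding genes, so its peaks may belong to any of them. The pool I values of these 7 genes ran between 7.91 and 10.5 and the pool J values between 5.14 and 8.55. Among them only Gm37240 had more peaks in the pool J list (119) than in the pool I list (115). Each pool list shared 11 of its own 12 densest genes with the replicated list. Neighbours in this order, such as Ank2 and Ank3, changed places between the lists: Ank2 had 10.04 and Ank3 9.70 in the pool I list, against 5.71 and 7.79 in the pool J list.

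**Figure D1:**
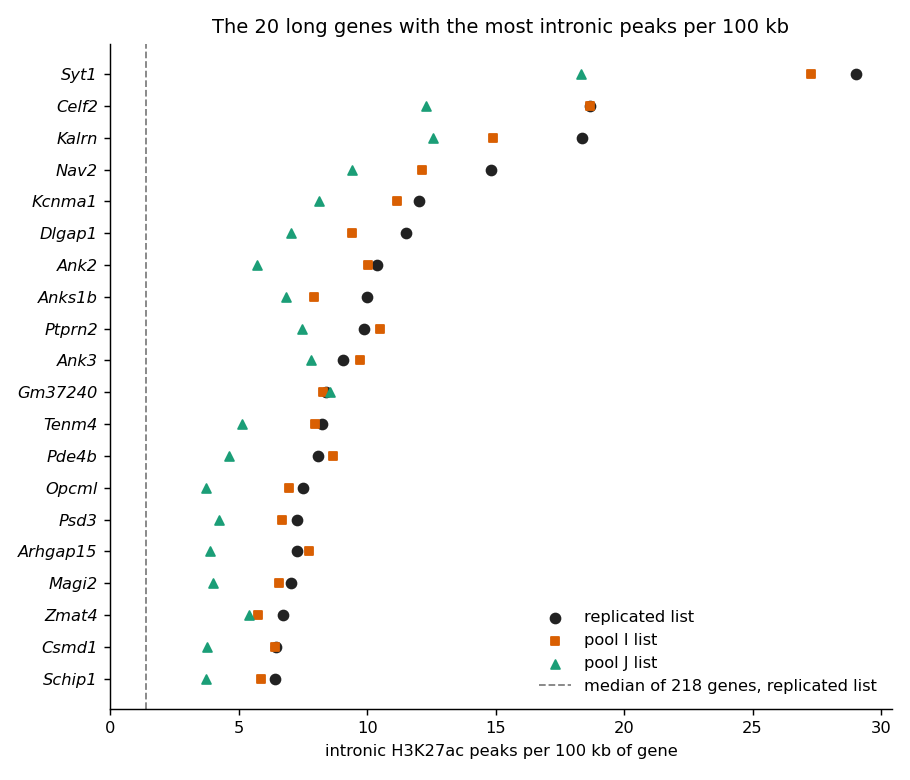
Intronic H3K27ac peaks per 100 kb of gene (x axis) in the 20 densest of 218 long genes (y axis, densest at the top), with a black circle for the replicated list, an orange square for the pool I list and a green triangle for the pool J list. Syt1 stands apart at 29.0, 27.3 and 18.3, and most pool J values lie to the left of the pool I values, while all lie to the right of the dashed line at the replicated-list median of 1.37.

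Members were concentrated in few genes. The 12 densest genes held 26.0% of the peak-gene pairs on 5.10% of the long-gene length, and the 50 densest held 64.8% on 23.3%. The 12 genes were chosen by density, so the spacing of their members follows from the choice: another member of the same gene lay within 5 kb of 88.0% of them, against 65.9% in the other long genes and 75.6% in genes of 100 to 500 kb. Their median width was 610 bp, against 344 bp for the 105 members of genes with under 0.5 peaks per 100 kb, while the median signals were close (3.37 and 3.17). Peaks of both pool lists were met by 49.2% of the 1213 members in the 12 densest genes and by 35.2% of these 105. A density counts separate peaks, and 37 intronic peaks of 4000 bp or wider were left out by the width limit, 10 of them in Gm37240 and 5 in Celf2.

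At the other end, 16 long genes held no member, and 14 of them held none in the pool I and pool J lists either. Among the longest of the 16 were Rbms3, Pard3b, Spag16, Dpyd, Sugct, Cntnap5b, Mgat4c, Nkain3, Fstl5, Adarb2 and Pkhd1. Rbms3, an RNA-binding protein gene of 1057 kb, and Pard3b, a cell polarity gene of 1003 kb, were the longest. Pkhd1 is a kidney cilium gene and Spag16 a sperm flagellum gene. Dpyd degrades pyrimidines, and Adarb2 is an RNA-editing family member used as a marker of some cortical interneurons. Of the 16, the pool I list held 2 peaks in Sugct, a mitochondrial enzyme gene, and 1 in Fstl5, a secreted follistatin-like protein gene. Shorter genes without a member were Dock2, an immune-cell exchange factor, B3galt1, a glycosyltransferase, Iqcm and Skint5. In Dock2 136598 bases are unknown in the assembly, and no peak can be called there. B3galt1 is a case of annotation, since basic transcripts span 3.24% of its gene record. Basic transcripts spanned under 90% of 23 of the long genes, and peaks in the unspanned rest are not members.

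A promoter peak did not always come with intronic peaks. A replicated peak stood within 1 kb of a TSS in 187 of the 218 long genes (85.8%), against 59.3% of all autosomal coding genes and 79.6% of the 2154 genes of 100 to 500 kb. Genes with a promoter peak had a median of 1.80 intronic peaks per 100 kb, against 0.193 in the 31 without. The second value is that of Pcdh15, and basic transcripts span 53.4% of its record. Nav3, Adamtsl1, Naaladl2, Sgcd and B3galt1, also among the 31, had under 90% of their records spanned. Neither median was redone per 100 kb of spanned gene or with the TSSs of the full annotation. The signal of the highest promoter peak and the density had a Spearman rank correlation of 0.42 over the 187 genes with both values, which come from the same list. Yet 7 genes with a promoter peak held no member: Rbms3, Pard3b, Sugct, Cntnap5b, Mgat4c, Nkain3 and Fstl5. The promoter signal was 13.1 in Sugct and 6.83 in Mgat4c, a glycosyltransferase gene. Arhgap15, a Rac GTPase-activating protein gene, was the reverse case, with 47 members (7.26 per 100 kb) and no promoter peak. With the TSSs of the full annotation 195 of the long genes had a promoter peak, and Arhgap15 still had none.

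Cntnap2 joined a strong promoter to a nearly empty gene body. It encodes a neurexin-like adhesion protein that clusters potassium channels, and at 2245 kb it held 7 members, 0.312 per 100 kb, with 7 peaks in the pool I and 2 in the pool J list. Its promoter peak had a signal of 12.3, at the 95.3 percentile of the replicated list. The first 929 kb after its promoter held no member. The longest such stretches within transcribed spans included 1057 kb in Rbms3, 1019 kb in Ccser1, 1003 kb in Pard3b and 987 kb in Erbb4. Erbb4, a neuregulin receptor found mostly on interneurons in cortex, held 2 members, both in its 3′ bin, with 0 peaks in the pool I and 1 in the pool J list.

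**Figure D2:**
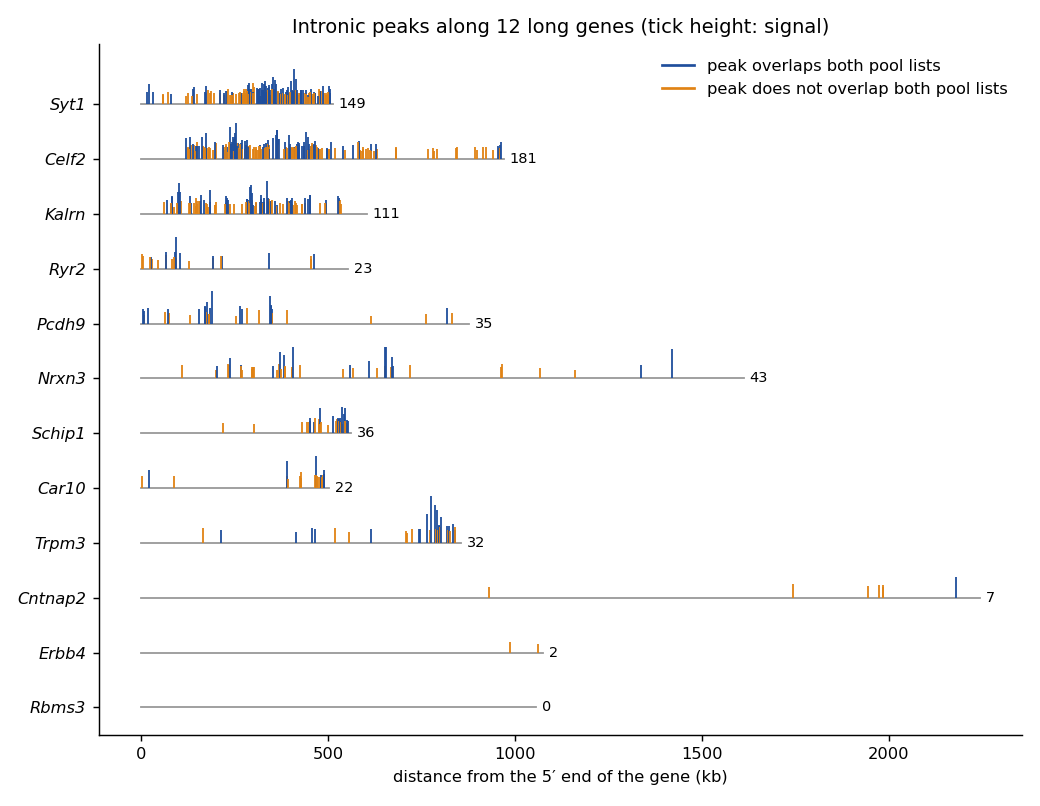
Member peaks along 12 long genes, each drawn to scale as a grey line from its 5′ end (x axis, kb), with a tick for each member, tick height in proportion to signal and the number of members at the right. Blue ticks overlap peaks of both pool lists and orange ticks do not: Syt1, Celf2 and Kalrn are filled, Ryr2, Pcdh9 and Nrxn3 lean to the 5′ end, Schip1, Car10 and Trpm3 lean to the 3′ end, and Cntnap2, Erbb4 and Rbms3 are nearly or wholly empty.

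Position along the gene was not even when each gene was divided into 5 equal bins. Per 100 kb of intron away from TSS windows, the density from the 5′ to the 3′ bin was 2.27, 2.56, 2.54, 2.60 and 3.41. The 3′ bin held 25.9% of the pairs on 20.4% of that intron, and the 5′ bin 15.8% on 18.7%. By distance from the 5′ end, the density was 2.90 in the first 25 kb, 1.75 at 25 to 50 kb and 2.94 at 400 to 500 kb. In genes of 100 to 500 kb the bins had 4.02, 4.39, 4.35, 4.17 and 4.31, a narrower spread. The 3′ bin was the densest in the pool I list (3.30, with 2.44 in the 5′ bin) and in the pool J list (1.86, with 1.30 in the 5′ bin). In the 12 densest genes the bin before the last held most (25.4%) and the 5′ bin least (10.5%), while in the other long genes 27.6% lay in the 3′ bin and 17.7% in the 5′ bin. Of the 77 genes with at least 20 members, 46 had more in the 3′ bin than in the 5′ bin, 28 had fewer and 3 had as many. Magi2, a postsynaptic scaffold gene, gave the most to the 3′ bin, 65 of its 104 members. Of the peaks in the 3′ bin 12.6% had an annotated TSS within 10 kb, against 17.9% in the 5′ bin and 12.2% of all. Overlapping genes count their shared peaks once each, as Iqschfp and Schip1 do.

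**Figure D3:**
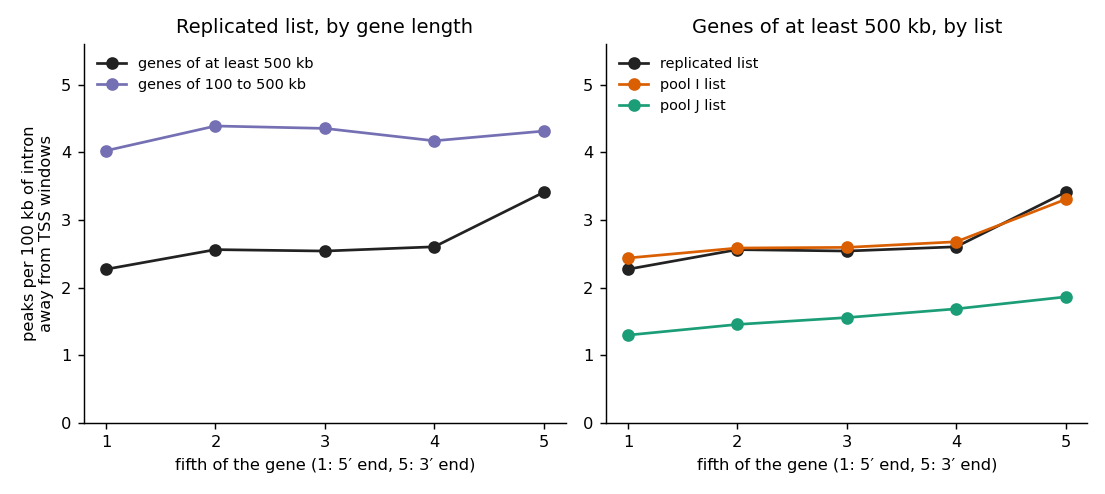
Peaks per 100 kb of intron away from TSS windows (y axis) in each of 5 equal bins of the gene (x axis, 5′ to 3′), on the left for genes of at least 500 kb and of 100 to 500 kb in the replicated list, and on the right for genes of at least 500 kb in each of 3 lists. The long genes climb to 3.41 in the 3′ bin of the replicated list, while the shorter genes stay between 4.02 and 4.39.

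Single genes leaned much further than the average, and the genes named here are those with at least 20 members. Among these, nearest the 5′ end was Ryr2, the ryanodine receptor that releases calcium from internal stores, with a median member position at 0.168 of the gene and 14 of 23 members in the 5′ bin. It was followed by Pcdh9, a protocadherin (0.210), Plcb1, a phospholipase downstream of Gq receptors (0.232), Nrxn3, a presynaptic neurexin (0.251), and Erc2, an active zone protein (0.266). In Ryr2 the first intron of 160 kb held 15 members and in Pcdh9 the second intron of 325 kb held 24. In Nrxn3 the third intron of 337 kb held 24 of 43 members, while intron 14 of 443 kb held 4.

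Among genes with at least 20 members, nearest the 3′ end were Iqschfp (median position 0.945) and Schip1 (0.931), which overlap and share their 3′ part, then Car10 (0.929), Dab1 (0.917) and Trpm3 (0.913). Schip1 is a partner of ankyrin at the axon initial segment, and 31 of its 36 members lay in the 3′ bin. Car10 is a secreted neurexin ligand, with 16 of 22 members there and 11 of the 22 in intron 5. Trpm3 is a cation channel, with 24 of 32 there. Trpm3 also held the highest-signal member among genes that are not read-through models and away from the TSSs of the full annotation. Dab1, the reelin adaptor of neuronal migration, had 22 of 32 in the 3′ bin, but basic transcripts span 33.5% of its gene record. Per 100 kb of intron of those transcripts it had 8.68 members, against 2.84 per 100 kb of gene record.

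Grouped by function, presynaptic release genes had the highest median density per 100 kb of gene record in the replicated list, at 3.47 over 6 long genes. From Syt1 they ran through Erc2 (4.67), Rims1 (4.43), both active zone scaffolds, Nbea (2.51) and Exoc4 (1.52) to Cadps2 (0.520), a dense-core vesicle priming factor. Above the all-gene median of 1.37 stood 5 of the 6. The pool I list gave this group a median of 2.98 and the pool J list 1.77, beside all-gene medians of 1.46 and 0.578. In the pool I list the medians of the 3 RNA-binding protein genes (3.34) and of the IgLON and contactin genes (3.16) were higher than that of the presynaptic release genes. In the replicated list the RNA-binding protein genes had a median of 2.88 and ran from Celf2 through Rbfox1 (2.88) to Rbms3 (0). That median is the Rbfox1 value, and basic transcripts span 69.6% of the Rbfox1 record. Per 100 kb of spanned gene the order of the groups may differ. The IgLON and contactin genes, neural adhesion molecules of the immunoglobulin class, had a median of 2.995, with 5 of 6 above the all-gene median: Opcml 7.49, Ntm 4.34, Negr1 3.45, Cntn4 2.54, Lsamp 1.64 and, below it, Cntn5 0.724. Of 27 postsynaptic scaffold and signalling genes 19 stood above it, with a median of 2.63. They led with Kalrn, Dlgap1, Anks1b and Pde4b, a cAMP phosphodiesterase gene (8.08), and ended with Erbb4 (0.186) and Agbl1 (0.112). Agbl1 had no promoter peak, and its place among postsynaptic genes was not checked. Of 25 synaptic adhesion genes 15 stood above the all-gene median, with a median of 1.99, with Ptprn2, Tenm4 and Kirrel3 (4.36) among the highest. Ptprn2 was placed in this list as a receptor-type phosphatase. The last of the list were Sdk1 (0.205), a lamina-specific adhesion molecule best known from retina, and Cntnap5b (0). Ion channel genes had a median of 1.87 over 14 genes, from Kcnma1 through Cacna1c, the L-type calcium channel (4.76), Ryr2 (4.15) and Trpm3 (3.74) down to Kcnd2 (1.17) and Ryr3 (0.512). Axon guidance genes had a median of 1.86 over 10 genes, led by Nav2, Unc5d (4.71), Slit3 (3.75) and Dab1 (2.84) and ending with the receptors Dcc (0.456) and Robo1 (0.271). Basic transcripts span 51.9% of the Robo1 record, and it had 0.533 members per 100 kb of their introns. The 4 LDL receptor and CUB-Sushi genes had a median of 2.40, from 6.45 in Csmd1 to 0.165 in Csmd3.

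The remaining groups had medians under the all-gene median. The 6 glutamate receptor genes had a median of 0.833, and 1 of them, Grm5, stood above 1.37 with 2.54. Grid1 had 1.18, Grm7 1.09, Grm8 0.581 and Grik2 0.576, while all 6 had a promoter peak. Their medians were 1.19 in the pool I and 0.626 in the pool J list, and the pool J value is above that list's all-gene median of 0.578. Transcription factor and chromatin regulator genes had a median of 0.704 over 15 genes. Foxp1 (4.85), a factor of upper-layer and striatal neurons, Zbtb20 (3.65), Rora (2.45) and Sox5 (2.10) led them, and Esrrg (0.165) and Auts2 (0.0904) came last. Basic transcripts span 39.97% of the Sox5 record, and per 100 kb of their introns Sox5 had 5.42 members, against 5.02 in Foxp1. Auts2 is another case of annotation, with 17.96% of its record spanned by basic transcripts and 0.535 members per 100 kb of their introns. Cadherin, protocadherin and catenin genes had a median of 1.21 over 9, from Pcdh9 (3.99), Ctnnd2 (3.85), Fat3 (2.88) and Ctnna2 (2.00) to Pcdh15 (0.193) and Cdh12 (0.175). Basic transcripts span 53.4% of the Pcdh15 and 42.0% of the Cdh12 record, and per 100 kb of their introns these genes had 0.371 and 0.424. Genes at common fragile sites and of metabolism had a median of 0.636 over 18, and 16 of the 18 had a promoter peak. The cytoskeleton and dystrophin-complex genes had a median of 0.545 over 9 although Ank2 and Ank3 belong to them. Of the 4 genes listed for hair cells, kidney and other tissues outside cortex, 3 held no member and 1 had a promoter peak. That gene, Slc9a9, held 9 members, 1.61 per 100 kb, with 2.32 in the pool I and 0.178 in the pool J list. Its replicated-list value is above the all-gene median, and its place in this list was not checked. These medians describe genes of 1 tissue and were not compared with other lists by a test.

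**Figure D4:**
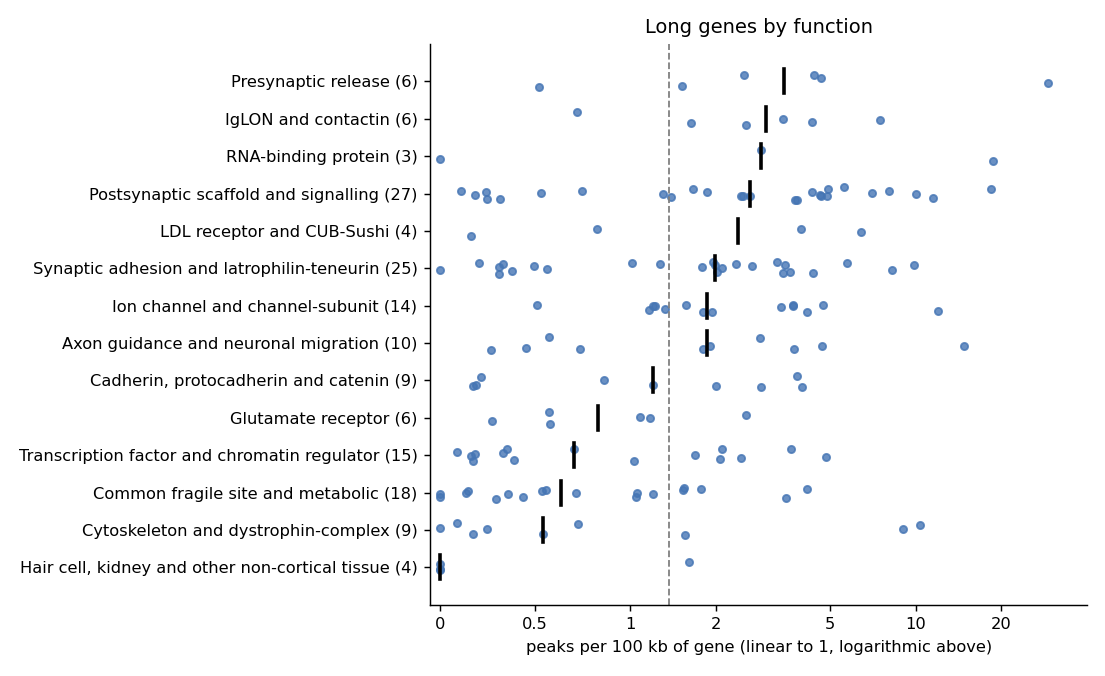
Intronic peaks per 100 kb of gene in the replicated list (x axis, linear to 1 and logarithmic above) for long genes grouped by function (y axis, number of long genes in brackets), with a point for each gene, a black bar at each median and a dashed line at the median of all 218 genes. By this measure presynaptic release genes have the highest median (3.47) and genes listed for tissues outside cortex the lowest (0).

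Long genes of the same family could differ in density. There were 27 sets of long genes whose symbols differ in the final number or letter, 59 genes in all. In 12 sets the gap between the densest and the sparsest gene exceeded 2 peaks per 100 kb of gene record, and the median gap was 1.88. Over all 218 long genes the quartiles were 0.355 and 3.51. How often unrelated long genes differ by as much was not worked out, so the count does not set families apart. All 27 sets were drawn up after the densities had been seen. Both pool lists gave the outer genes the order of the replicated list in 24 of the 27 sets. In the Robo and Sorcs sets both pool lists reversed it, and in the Ank set the pool J list did. Csmd1, a complement regulator of synapses, had 106 members and 6.45 per 100 kb, Csmd2 3.97 and Csmd3 0.165 with 2 members. Foxp1 had 29 members against 1 in Foxp2, a factor of deep-layer neurons. Ryr2 had 23 members against 3 in Ryr3. Tenm4 had 8.24 per 100 kb, Tenm2 2.36 and Tenm3 1.78. Pde4b had 8.08 and Pde4d 1.86, and Dlgap1 11.5 and Dlgap2 4.92. Basic transcripts span under 90% of the Pde4d and Tenm3 records, so their values per 100 kb of spanned gene would be higher. Nav2 had 14.8 and Nav3 1.81, but 41.2% of the Nav3 record is spanned by basic transcripts, and per 100 kb of their introns the values were 16.4 and 4.54. Ank2 and Ank3 were 1.32 per 100 kb of gene record apart, but basic transcripts span 84.4% of the Ank2 and 99.96% of the Ank3 record.

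**Figure D5:**
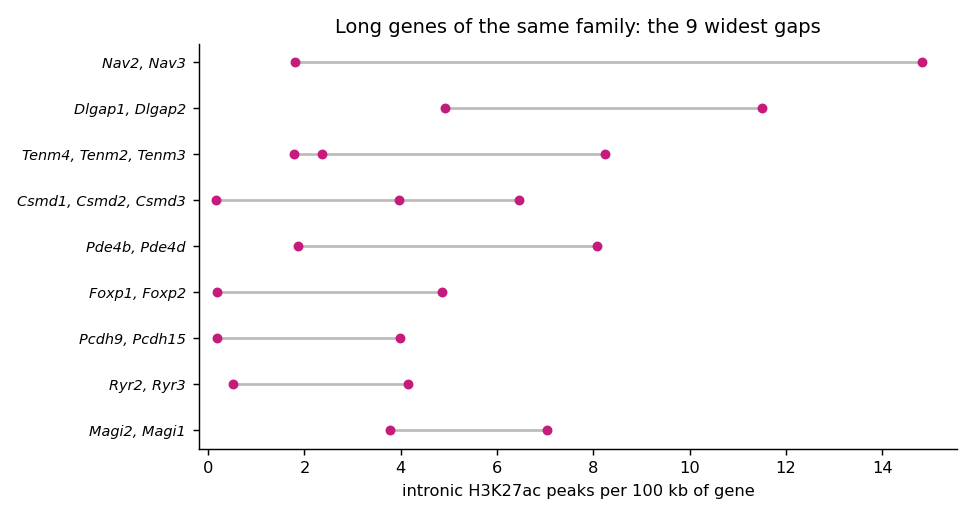
Intronic peaks per 100 kb of gene (x axis, replicated list) in the 9 sets of long genes with related symbols that have the widest gaps (y axis, widest at the top, densest gene named first), with a point for each gene and a line over each set. Nav2 and Nav3 lie furthest apart (14.8 and 1.81).

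In signal and width the members had medians close to those of intronic peaks of shorter genes. The median member had a signal of 3.27 and was 529 bp wide, against 3.27 and 528 bp for the 15883 intronic peaks of genes of 100 to 500 kb. The quartiles of member signal were 2.77 and 4.07. Peaks of both pool lists were met by 43.1% of the members and by 44.2% of that class, against 56% of all replicated peaks. Of the 4608 members 1572 met a peak of the pool I list alone, 185 of the pool J list alone and 867 of neither. In genes of 100 to 500 kb these counts were 5225, 696 and 2948 of 15883 peaks. Over all 72027 replicated peaks they were 18914, 2730 and 10037. The median signals and widths that follow are those of members. The median signal was 4.08 for those in both lists and 2.67 for those in neither, and the median width was 884 and 271 bp. The stricter threshold, −log10 q of 5 or more, was passed by 38.9% of the members and by 38.2% of the class, against 53.6% of all replicated peaks. The members' matches had a median signal percentile of 50.3 within the pool I list and 34.7 within the pool J list. Few members were strong, since 28 stood in the top decile of the replicated list (0.608%), against 0.938% in genes of 100 to 500 kb and 32.5% of the peaks over TSS windows. The number of peaks differed more: per 100 kb of intron away from TSS windows the long genes held 2.68 and genes of 100 to 500 kb held 4.25. Without any member were 7.34% of the long genes and 24.3% of the genes of 100 to 500 kb, which offer less room. The 5 genes just over the length limit ran from 0.198 to 4.37 peaks per 100 kb and the 5 just under it from 0 to 5.47.

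The strongest members need care over what they are. The highest signal, 17.2, stood in the read-through model Gm42416 on chromosome 18 (pool I 21.5, pool J 12.6), and the second, 15.8, in Gm20388, a model of 4435 kb that spans other coding genes, where it lay 2.37 kb from the nearest TSS, that of the muscle actin gene Acta1. The third, 14.7, lay in Atp8a2, a phospholipid flippase gene, 160 bp from an Atp8a2 TSS that is in the full annotation and not in the basic one. Next came a second Gm20388 peak (14.5) and the Trpm3 and Syne1 peaks, each of 12.2. The Syne1 peak, in the gene of a giant nuclear envelope protein, lay 823 bp from a TSS of the full annotation. Of all members, 142 (3.08%) lay within 1 kb of a TSS that the rule did not use, 107 of them near TSSs that only the full annotation holds and 35 near basic TSSs of other gene types. Their median signal was 3.77, against 3.27 for the rest. Of the 28 in the top decile, 4 were such peaks. The 6 genes with at least 5 other coding genes inside them (Fgfr2, Gm20388, Gm37013, Gm37240, Gm37388 and Gm42416) held 550 members, and the median density without them was 1.36.

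The pool J list was the shorter one in most genes. Of the 218 genes 178 had more peaks in the pool I list, 29 as many and 11 fewer. The 11 were Gm37240, Cdk14, Gm42416, Lpp, Gm37388, Gm37013, Lrba, Erbb4, Adgrv1, Cdh12 and Galnt13. Of these, Gm42416, Gm37388 and Gm37013 are overlapping models at 1 place on chromosome 18 that share peaks. The gaps were small: Cdk14, a cyclin-dependent kinase gene, had 11 peaks in the pool I and 14 in the pool J list, and Lpp, a focal adhesion gene, had 5 and 7. Over the 1984 members found in both, the signals of the pools had a Spearman rank correlation of 0.53, across peaks that are not replicates.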

How the data were processed

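H3K27ac ChIP-seq was deposited as peak lists: per the file descriptions, a replicated and a pseudoreplicated list from both pools and a pseudoreplicated list from each pool alone, on mm10. From each list the signal, the −log10 q and the summit offset were used, all as the authors deposited them. No aligner, caller, signal normalization or handling of strain variants was given in the sources used here. The lists give no reads, so the depth is unknown and no counting interval was made. Values were used only to describe or filter peaks within a list.

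Members were found with Python 3.11.15, pandas 2.3.3 and numpy 2.4.6, by a procedure tested on simulated peaks. TSSs were those of basic transcripts of coding and long non-coding genes. A midpoint counted as intronic inside the span of a basic transcript and outside the exons of the gene. A shared 1 bp matched peaks of 2 lists. Introns are numbered on 1 basic transcript per gene. Sequence was read with pysam 0.24.0 from GRCm38.p6, the assembly of mm10.

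The members, gene lists and rule for naming genes were chosen with earlier results of these data known. The rule names the 12 densest and 12 sparsest genes, the genes of the 5 highest-signal members, the 5 genes with at least 20 members leaning most to each end, the 5 longest empty stretches and the ends of each list. Further genes (Arhgap15, Cntnap2, Magi2, Syne1, the paralogs and the genes with more pool J peaks) were named after their values were seen. There is 1 group of 2 pools, so no test was made. Alternatives changed the list, the threshold, the TSS set and window, the width and gene length limits, the intron definition and the denominator. Some genes that the rule names are not reported here.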

Additional observations from a re-analysis of the deposited data

How the results depend on the processing

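No paired analysis was possible because each pool gave 1 list and no result comes from a test. Between the pool lists the number of members ran from 2697 (pool J) to 4682 (pool I), the median per 100 kb from 0.578 to 1.46, the density of all long genes together from 1.46 to 2.52, the genes without a member from 20 to 29, the share in the 5′ bin from 15.4% to 16.7% and the share at −log10 q of at least 5 from 49.9% to 66.1%. At −log10 q of at least 5 there were 1793 members, a median of 0.445, 0.965 for all genes together, 44 genes without a member, 14.6% in the 5′ bin and 79.5% in both pool lists. Members in both pool lists numbered 1984, with a median of 0.440, 1.07 for all genes together, 38 genes without a member, 14.3% in the 5′ bin and 71.8% at that q. With genes of at least 400 kb 27 genes had no member and 17.0% of peaks lay in the 5′ bin. With genes of at least 750 kb there were 2736 members and 5 genes without one. The pseudoreplicated list of both pools put 38.9% of its members in both pool lists. With stretches that no basic transcript spans, an alternative chosen after the data were seen, 17.8% lay in the 5′ bin. The other alternatives (TSS windows of 500 and 2500 bp, TSSs of every biotype or of the full annotation, no width limit, exons of every gene, intron length as the denominator, an overlap of 50%, no read-through genes) moved these values by less than the SD between the pool I and pool J values, and left the share in both pool lists between 42.2% and 43.5%. That SD comes from 2 lists of unlike length, so it is a wide yardstick and not an error. With intron length as the denominator the median went from 1.37 to 1.56. There 12 of 92 named genes moved by more than the SD of their own pool values. Under the alternatives that kept all 218 genes, 10 to 12 of the 12 densest genes stayed. Peak calling limits what is seen: a gene without a member has no called peak, which does not show that the mark is absent.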
